A study of Saccharomyces cerevisiae with 13 samples.

Results

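The 0 min array of an alpha factor time course of budding yeast (Saccharomyces cerevisiae) was compared with the arrays of 10, 20 and 30 min after release, 4 of the 13 samples of the series. At 0 min the cells were held by alpha factor, and at 10, 20 and 30 min they had been released from it into YEPD, a rich glucose medium. Every sample's total RNA carried Cy5 and was set, on a 2-colour array of its own, against a Cy3-labelled asynchronous culture, grown overnight in YEPD to an OD of 0.6. The sources used here do not give the strain, the genotype or the pheromone dose. The 4 arrays were chosen because their titles carry the same file stamp, while the titles of the 9 arrays from 40 to 120 min carry another, and what the stamps record is not stated.

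Alpha factor is the pheromone secreted by MATalpha cells. In MATa cells it binds the receptor Ste2, and a G protein and a MAP kinase cascade ending in Fus3 activate the transcription factor Ste12, which turns on genes for mating, while Far1 blocks the G1 cyclins and holds the cells before Start. After release the cyclins Cln1 and Cln2 accumulate, the transcription factors SBF and MBF switch on the genes of budding and DNA replication, and histone genes follow in S phase.

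Values are log2 ratios of a time point over the asynchronous culture, where 1 log2 is 2-fold. The deposited ratios are in log10, a base read from the values, and their direction is not stated in the sources used here. Time point over culture was taken as likely because the 7 MATa-specific genes, which pheromone is known to induce, all had positive values at 0 min, between 1.02 and 3.82 log2. With the opposite direction every sign below would turn round. No time point was repeated, so the error of each difference starts from the spread of the 10, 20 and 30 min arrays. Limma pools that spread with a value shared over all genes (2.53 prior against 2 residual degrees of freedom). An SE is thus not the gene's own spread alone. The error holds real change over those 20 min as well as measurement error, and assumes that the single 0 min array varies like the other 3. The number of arrays limits the precision. All p-values are limma's, adjusted by Benjamini-Hochberg over the 6147 genes tested, and each difference is the 0 min value minus the mean of the other 3, with its SE.

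The 4 arrays held values for between 6157 and 6188 of 6205 open reading frames, and their medians lay between -0.01 and 0.01 log2. The spread of the ratios was widest at 10 min (SD 0.63 log2), against 0.46 at 0 min, 0.50 at 20 min and 0.45 at 30 min. Values at the end of the deposited scale, which are bounds, were left out. They numbered 27 at 0 min, 107 at 10 min, 24 at 20 min and 47 at 30 min.

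Few genes passed the test. Limma called 6 genes higher at 0 min (0.0976% of those tested), KAR4, FUS1, SCW11, KAR5, HMI1 and FUS3, and called 0 genes lower (0% of those tested), where the smallest adjusted p was 0.0663, for COG5. An unadjusted p under 0.05 was reached by 599 genes on the higher side and 417 on the lower. These counts depend on which of the 3 released arrays set the error. Without the 10 min array limma called 73 genes higher and 87 lower, while without the 20 min or the 30 min array it called 0 in either direction.

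Genes were therefore also described by a rule of size that has no p-value, in which the 0 min value lay at least 1 log2 outside all 3 other values. Of 5949 genes with a value on all 4 arrays, 70 lay above by this rule (1.18%) and 78 below (1.31%), and these are called clear of the other arrays in what follows. Leaving out an array can only add genes to the rule. Without the 10 min array 133 genes were clear below and without the 30 min array 155. Just inside the rule were KTR2, whose nearest gap was 1.0 log2, and RAD24, at 1.01 log2, and just outside were YMR206W, at 0.997 log2, and HTC1, at 0.999 log2. The genes clear above had a median difference of 1.92 log2 (1.04 to 4.43), and those clear below a median of -1.78 log2. Of the 70 genes clear above, 60 lay above every array from 40 to 120 min, as 19.2% of all genes did. Of the 78 clear below, 62 lay below every one, as 17.8% of all genes did. The same 0 min value had picked these genes, so their larger shares are no separate result. The later arrays also carry the other file stamp.

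**Figure D1:**
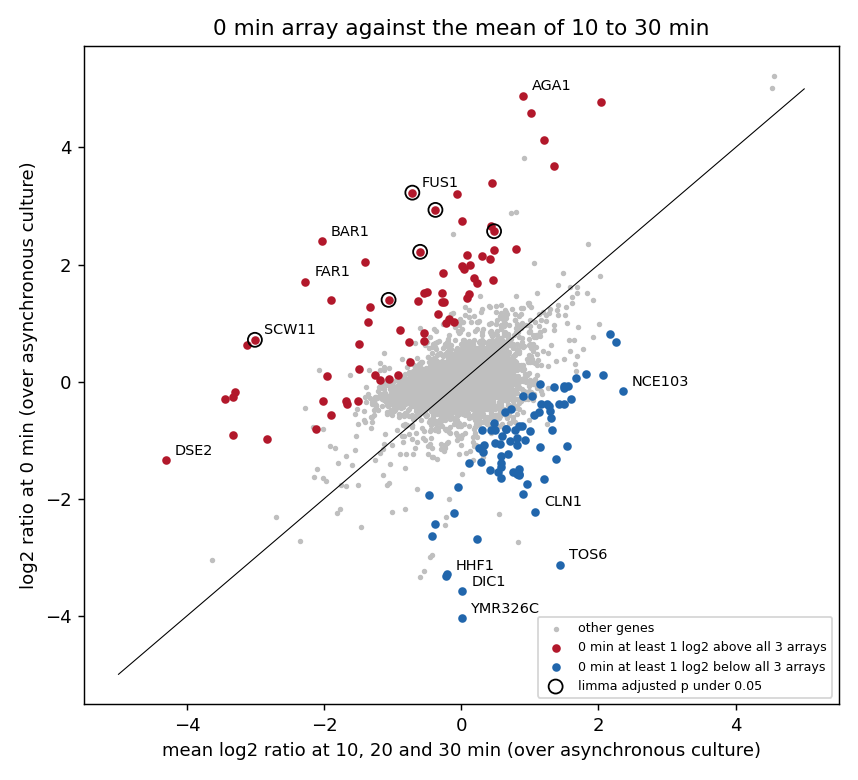
The log2 ratio at 0 min (vertical axis) is plotted against the mean log2 ratio at 10, 20 and 30 min (horizontal axis) for each gene, both over the asynchronous culture, with the line of equal values. Red points are the 70 genes at least 1 log2 above all 3 arrays, blue points the 78 at least 1 log2 below, and circles the 6 genes that limma called, among them FUS1 at 3.23 and SCW11 at 0.71 log2 at 0 min.

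Genes of pheromone signalling and mating made up the largest named block above the released arrays. Of 23 signalling genes tested, 10 were clear above and 0 clear below, against 1.18% and 1.31% of all genes. By any margin 20 lay above all 3 arrays, against 34.6% of all genes. Of 28 genes of mating itself, which act in agglutination, cell fusion and nuclear fusion, 13 were clear above and 0 clear below. Of the 27 with all values, 21 lay above all 3 arrays by any margin and 3 below, against 34.6% and 29.1% of all genes. The median difference was 0.92 log2 for the signalling genes and 2.06 log2 for the mating genes, against 0.02 log2 over all genes tested.

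Within signalling, the largest difference belonged to BAR1, the secreted protease that degrades alpha factor. It had a log2 ratio of 2.39 at 0 min, against -1.05 at 10 min, -2.16 at 20 min and -2.90 at 30 min. The value at 0 min stood well above the rest, but the other 3 kept moving, which gave a difference of 4.43 ± 0.73 log2 (21.6-fold) and an adjusted p of 0.148. FAR1, the inhibitor that arrests cells in G1, had 1.71 at 0 min, against -2.01, -2.65 and -2.17 at 10, 20 and 30 min. Here the released arrays lay close together, and the difference was 3.98 ± 0.29 log2 (15.8-fold, adjusted p = 0.0521). SST2, the regulator that desensitises the pathway by inactivating the G protein alpha subunit, had 2.04 at 0 min, against -1.02, -1.62 and -1.56 (difference 3.44 ± 0.29, adjusted p = 0.0663). These 3 genes, which act to end or to execute the arrest, had positive values at 0 min and negative values on each of the next 3 arrays. BAR1 is also among the MATa-specific genes that set the direction of the ratios, so its sign at 0 min is no separate result.

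The MAP kinase gene FUS3 was the one signalling gene that passed the test. Its log2 ratio was 1.40 at 0 min, against -1.19 at 10 min, -0.99 at 20 min and -1.0 at 30 min, a difference of 2.46 ± 0.16 log2 (5.49-fold, adjusted p = 0.0471). The related kinase gene KSS1 differed by much less, with 0.15 at 0 min, against -0.50, -0.45 and -0.40 (difference 0.60 ± 0.14, adjusted p = 0.187). STE12, which encodes the transcription factor of the response, had 0.11 at 0 min, against -1.57, -1.21 and -1.01 (difference 1.37 ± 0.26, adjusted p = 0.152). Its 0 min level was thus near that of the asynchronous culture and its released levels were below it. TEC1, the partner of Ste12 in filamentous growth, had 1.52 at 0 min, against -0.85, -0.38 and -0.39, and MSG5, a phosphatase acting on Fus3, had 0.69, against -0.68, -0.53 and -0.41. AFR1, needed for mating projections, had 2.15 at 0 min, against 1.07, 0.14 and -0.29.

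The relays of the cascade itself had small differences. The scaffold gene STE5 had a difference of 0.51 ± 0.14 log2, the kinase gene STE11 0.22 ± 0.15 and the adaptor gene STE50 0.06 ± 0.14 (adjusted p = 0.205, 0.525 and 0.874). The G protein subunit genes were unlike one another. GPA1, the alpha subunit, had 1.28 at 0 min, against -0.13, -1.55 and -2.31 (difference 2.61 ± 0.86, adjusted p = 0.254), while STE4, the beta subunit, had a difference of 0.75 ± 0.22 and STE18, the gamma subunit, one of 0.52 ± 0.19. STE7, the kinase between Ste11 and Fus3, was at the upper limit of the scale at 0 and 10 min and was not tested, with 0.01 log2 at 20 min and -0.11 at 30 min.

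Among the genes of mating itself, FUS1, a membrane protein of cell fusion, had 3.23 log2 at 0 min, against -0.88 at 10 min, -0.72 at 20 min and -0.55 at 30 min. Its difference of 3.94 ± 0.19 log2 (15.4-fold) passed the test (adjusted p = 0.0222). KAR4, a transcription factor for nuclear fusion genes, had 2.93 at 0 min, against -0.38, -0.27 and -0.48 (difference 3.31 ± 0.16, adjusted p = 0.0222). KAR5, needed for fusion of the nuclear membranes, had 2.22 at 0 min, against -0.60, -0.72 and -0.48 (difference 2.82 ± 0.16, adjusted p = 0.0409). In each of these 3 genes the released values lay close together and below the culture.

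Within the list of mating genes, the highest ratios at 0 min came from genes whose difference did not pass. AGA1, the anchor of the a-agglutinin that makes mating cells stick, had 4.88 at 0 min, against 2.74, 0.13 and -0.17 (difference 3.98 ± 1.24, adjusted p = 0.237). PRM1, which acts at the fusing plasma membranes, had 4.59 at 0 min, against 1.76, 0.70 and 0.60, and FIG2, a cell wall adhesin, had 4.13, against 2.23, 0.67 and 0.70. All 3 were still above the culture at 10 min and lay far lower at 20 min. FIG1, a membrane protein for calcium entry during mating, had 4.77 at 0 min, against 2.64, 1.0 and 2.46, and FUS2, a cell fusion gene, had 2.89, against 0.36, -0.05 and 2.07. In both the 30 min value stood above the 20 min value, by over 1 log2. SAP1, an ATPase gene that is in none of the lists, had the same order of values, with 3.68 at 0 min, against 2.36, -0.11 and 1.82. PRM6, a potassium channel gene, had 2.52 at 0 min, -0.08 at 10 min and -0.16 at 30 min, and at 20 min it was at the lower limit of the scale, so that it was not described by the rule of size (difference from 2 arrays 2.64 ± 0.17, adjusted p = 0.0684).

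Not all genes of mating stood above. SPA2, a polarity scaffold also used in budding, had -0.67 at 0 min, against 0.27, 0.35 and 0.44 (difference -1.02 ± 0.15, adjusted p = 0.144). The nuclear fusion genes KAR1, KAR9 and VIK1, which also act in the mitotic spindle, had differences of -0.37, -0.32 and -0.52 log2 (SE 0.17 to 0.47), and PRM9 had -0.09 ± 0.14. PRM7 was unusual in its level: it had -0.25 at 0 min, against -3.76, -3.12 and -3.12. The gene table gives YDL038C, which has a row of its own, as another name of PRM7, and BSC1 as its neighbour, and both rows had much the same values, with -0.29 at 0 min, against -3.88, -3.61 and -2.83, for BSC1, and -0.18, against -3.70, -3.0 and -3.18, for YDL038C. In these 3 rows, which are not 3 separate genes, the arrested cells were near the culture and the released cells far below both, with differences of 3.08 to 3.15 log2.

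The MATa-specific genes mark the cells that answer alpha factor. Their values at 0 min set the direction of the ratios, so they are no check of it. All 7 were above all 3 released arrays, against 34.6% of all genes, and 5 were clear, against 1.18% of all genes. STE2, the alpha factor receptor, had 1.40 at 0 min, against -0.65, -2.20 and -2.86 (difference 3.31 ± 0.88, adjusted p = 0.201). ASG7, a MATa-specific regulator of signalling, had 3.39, against 1.20, -0.04 and 0.18. STE6, the exporter of a-factor, had 1.02, against -0.19, -1.90 and -1.99, and MFA2, an a-factor gene, had 1.39, against -0.07, -1.15 and -0.67. None of the 7 passed the test. The 5 MATalpha-specific genes, markers of the other mating type, lay between -0.27 and 0.34 log2 at 0 min, with a median difference of 0.14 log2 and 0 clear genes. That median was 0.25 log2 without the 10 min array and 0.36 without the 30 min array. Of 20 meiosis genes, markers of sporulating diploids, 0 were clear and the median difference was 0.09 log2. HMLALPHA1, a gene of the silent mating-type cassette, had 1.5 at 0 min, against 0.24, -0.20 and 0.28. It is in no list and was chosen after its values were seen.

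The speed of the change after release differed from gene to gene. It was expressed as the part of the way between the 0 min and the 30 min value that had been covered at 10 min. Values over 100% thus mean that the 10 min value lay past the 30 min value. A gene that rose again between 20 and 30 min, such as FIG1, gets a higher share than its 20 min value would give. Over the 70 genes clear above, the median was 95.5%, and 51 genes had covered at least 80%. Of the 20 clear genes of signalling and mating that are not MATa-specific, 14 had covered at least 80% (median 95.2%, lowest 39.3%, highest 150%), among them FUS1 at 109%, FUS3 at 108% and KAR4 at 97.0%. Of the 5 clear MATa-specific genes, 0 had covered 80% (lowest 40.3%, STE6, highest 71.0%, MFA2). The rule of size itself asks for a step of at least 1 log2 by 10 min, and whether the sets differ in speed was not tested. The other 2 MATa-specific genes did not meet it. MFA1, the other a-factor gene, had 2.88 at 0 min, against 2.76, 0.42 and -1.0, and AGA2, the binding subunit of the a-agglutinin, had 3.82, against 2.99, 0.66 and -0.91. Both were still far above the culture at 10 min and below it at 30 min, so neither was clear (adjusted p = 0.545 and 0.433). GPA1 and AGA1, which are not MATa-specific, had covered 39.3% and 42.3%. A log ratio shows how much RNA was present and not when synthesis stopped, so synthesis and decay cannot be told apart here.

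**Figure D2:**
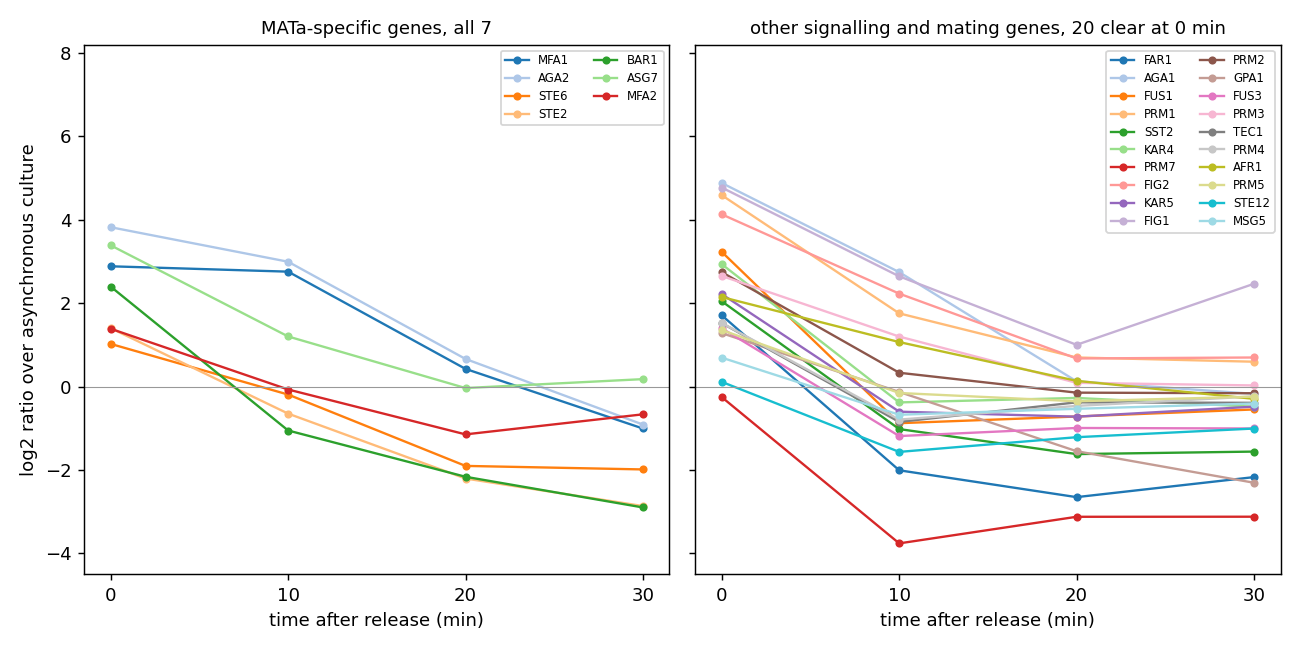
Each line is 1 gene, with its log2 ratio over the asynchronous culture (vertical axis) at 0, 10, 20 and 30 min after release (horizontal axis). The 5 clear MATa-specific genes on the left, where MFA1 and AGA2 are not clear, had covered between 40.3% and 71.0% of their change at 10 min, and 14 of the 20 clear genes on the right at least 80%.

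Part of the M/G1 SIC1 cluster, a list of genes expressed around the end of mitosis, also stood above. Of its 20 genes, 5 were clear above and 0 clear below, against 1.18% and 1.31% of all genes, with a median difference of 0.49 log2. By any margin 10 lay above all 3 arrays and 2 below, against 34.6% and 29.1% of all genes. SCW11, a cell wall glucanase that helps mother and daughter cells to separate, had 0.71 at 0 min, against -3.09 at 10 min, -2.87 at 20 min and -3.08 at 30 min. Its difference of 3.72 ± 0.17 log2 (13.2-fold) passed the test (adjusted p = 0.0222). AMN1, an inhibitor of mitotic exit in daughter cells, had 0.62 at 0 min, against -3.46, -2.81 and -3.12 (difference 3.75 ± 0.28, adjusted p = 0.0521). DSE2, a daughter-specific wall enzyme, had -1.34 at 0 min, against -4.75, -4.41 and -3.77, and DSE1, a daughter-specific regulator, had -0.99, against -3.19, -2.77 and -2.53. NIS1, a bud neck protein, had -0.34, against -2.24, -2.02 and -1.77. DSE1, DSE2 and NIS1 were thus below the culture on all 4 arrays, and least so at 0 min.

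Other members of that cluster had small differences. SIC1, the inhibitor of Cdk1 with the B-type cyclins, had -1.09 at 0 min, against -0.86, -0.95 and -1.21 (difference -0.08 ± 0.19, adjusted p = 0.871). EGT2, a wall protein of cell separation, had -3.04, against -3.26, -3.85 and -3.80, and the chitinase gene CTS1 had 0.25, against 0.13, -0.13 and -0.02. CIS3, a wall mannoprotein, ran the other way, with -2.0 at 0 min, against -1.41, 0.27 and 0.59 (difference -1.82 ± 0.84, adjusted p = 0.380). The cluster as listed did not move as a unit.

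Ribosome biogenesis genes, which build ribosomes in the nucleolus, differed by less but together. Of 40 genes, 39 were above all 3 released arrays, against 34.6% of all genes, and 0 below all 3, and all 40 differences were positive, with a median of 0.59 log2. The median log2 ratio of the list was -0.24 at 0 min, against -0.90 at 10 min, -0.83 at 20 min and -0.71 at 30 min. The list was thus slightly below the culture at 0 min and further below it on each released array. Only DBP2, an RNA helicase gene, was clear, with -0.57 at 0 min, against -2.06, -1.97 and -1.66 (difference 1.33 ± 0.21, adjusted p = 0.148). None of the 40 passed the test, and 26 had an unadjusted p under 0.05 in limma on the higher side, against 599 of 6147 over all genes. The 138 genes of cytosolic ribosomal proteins, which make up the ribosome itself, had a median difference of 0.08 log2 (0.11 without the 10 min array and 0.043 without the 30 min array), with 0 clear genes.

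**Figure D3:**
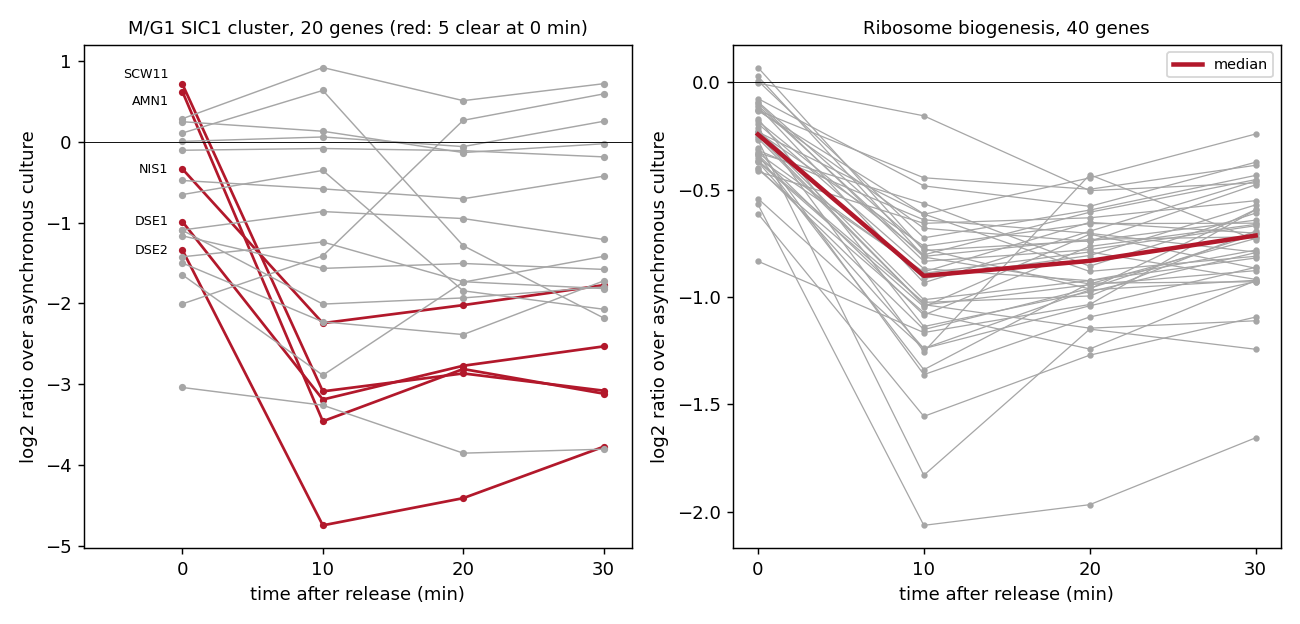
Log2 ratios over the asynchronous culture (vertical axes, which differ in scale) are shown at 0, 10, 20 and 30 min after release (horizontal axes), with 1 line per gene. On the left, red lines are the 5 clear genes of the M/G1 SIC1 cluster and grey lines its other 15. On the right, grey lines are the 40 ribosome biogenesis genes and the red line is their median, -0.24 at 0 min and -0.90 at 10 min.

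On the lower side, genes of the G1/S transition stood below the released arrays. Of 21 G1/S regulators, 6 were clear below and 1 clear above, against 1.31% and 1.18% of all genes. By any margin 14 lay below all 3 arrays, against 29.1% of all genes. The median difference of the list was -0.97 log2. CLN1, a G1 cyclin that drives Start, had -2.22 at 0 min, against 1.38 at 10 min, 1.18 at 20 min and 0.67 at 30 min. This was the largest difference of the list, -3.30 ± 0.31 log2 (9.83-fold lower, adjusted p = 0.0709). CLN2, its close relative, had -1.51 at 0 min, against 0.69, 0.70 and -0.16 (difference -1.92 ± 0.40, adjusted p = 0.167). PCL1, a cyclin of the kinase Pho85, had -1.66, against 1.89, 1.10 and 0.62. CLB6, an S phase cyclin, had -1.32, against 2.83, 1.45 and -0.12, and YOX1, a repressor of M/G1 genes, had -1.10, against 2.47, 1.24 and 0.89. PCL1, CLB6 and YOX1 were highest at 10 min, whereas TOS4, a gene bound by SBF, was highest at 20 min, with -1.75 at 0 min, against 0.68, 1.61 and 0.57.

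CLN3 and PCL2 had positive differences, unlike most of the list. CLN3, the cyclin that starts the transition, had 0.91 at 0 min, against 0.12, -0.76 and -0.56 (difference 1.31 ± 0.38, adjusted p = 0.216). PCL2, a Pho85 cyclin, was the 1 clear gene above, with 2.16 at 0 min, against 0.36, 0.07 and -0.16 (difference 2.07 ± 0.24, adjusted p = 0.105). SWI4, the DNA-binding subunit of SBF, had -0.11 at 0 min, against 1.91, 1.16 and 0.23. MBP1 and SWI6, for the other subunits of MBF and SBF, differed by -0.31 ± 0.37 and -0.51 ± 0.17 log2, and WHI5, the repressor of SBF, by -0.26 ± 0.29.

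Genes of DNA replication and repair were below as a list. Of 36 tested, 11 were clear below and 0 clear above, against 1.31% and 1.18% of all genes, with a median difference of -1.25 log2. Of the 34 with all values, 33 lay below all 3 released arrays, against 29.1% of all genes. MCD1, a cohesin subunit, had -1.92 at 0 min, against 1.51, 1.19 and 0.00 (difference -2.82 ± 0.63, adjusted p = 0.179). RNR1, the large subunit of ribonucleotide reductase, had -1.60, against 1.27, 1.35 and -0.10. CDC21, thymidylate synthase, had -1.12, against 0.95, 1.58 and 0.93, and POL1, the catalytic subunit of DNA polymerase alpha, had -1.01, against 0.85, 1.55 and 0.36. In these 4 genes the 30 min value lay closest to 0 min, yet still at least 1 log2 above it. The other 7 clear genes were RFA1, RFA2 and RFA3, the 3 subunits of the single-strand binding complex, the cohesin genes IRR1 and PDS5, the flap endonuclease gene RAD27 and the helicase cofactor gene CDC45, with differences from -1.46 (RFA3) to -1.90 log2 (RFA2). PMS1, of mismatch repair, had no value at 0 min and was not tested.

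Genes of budding and wall growth included the largest difference on the lower side. TOS6, a wall protein bound by SBF, had -3.13 at 0 min, against 0.43 at 10 min, 2.39 at 20 min and 1.51 at 30 min, a difference of -4.57 ± 0.77 log2 (23.8-fold lower, adjusted p = 0.148). AXL2, the landmark of axial bud sites, had -1.58 at 0 min, against 0.57, 1.14 and 0.70 (difference -2.39 ± 0.27, adjusted p = 0.102). The kinase gene GIN4, which acts in septin assembly, had -1.48, against 1.04, 1.05 and 0.46, and SWE1, the kinase of the morphogenesis checkpoint, had -1.46, against 0.22, 1.02 and 0.50. Of 26 genes tested, 8 were clear below and 0 clear above, against 1.31% and 1.18% of all genes (median difference -0.91 log2). The other 4 clear genes were HSL1, CSI2, CRH1 and MNN1. By any margin 18 of the 25 genes with all values lay below all 3 arrays and 0 above, against 29.1% and 34.6% of all genes. SVS1, a wall gene, had -2.73 at 0 min, against 0.18 and 1.48 at 10 and 20 min, and was at the upper limit of the scale at 30 min. The rho-type GTPase effector genes GIC1 and GIC2 had differences of -0.05 ± 0.22 and 0.56 ± 0.43 log2.

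Core histone genes followed a later course. All 8 lay below all 3 released arrays, against 29.1% of all genes. Only HHF1 and HHF2, the H4 genes, were clear, because the 10 min values were still low. HHF1 had -3.31 at 0 min, against -2.14 at 10 min, 0.59 at 20 min and 0.89 at 30 min, and HTA1, an H2A gene, had -3.34, against -2.62, 0.05 and 0.74. The 8 genes had a median log2 ratio of -3.11 at 0 min, against -2.14 at 10 min, 0.22 at 20 min and 0.80 at 30 min. The step between 10 and 20 min gave the differences wide errors (HTA1 -2.73 ± 1.37, adjusted p = 0.415, and HHF1 -3.09 ± 1.29, adjusted p = 0.340). Near-identical histone gene pairs may share signal on an array and are not separate measurements. HHO1, the linker histone gene, which is in no list, had -2.69 at 0 min, against -0.88, 0.68 and 0.87. Over all 78 genes clear below, 20 had their highest released value at 10 min, 40 at 20 min and 18 at 30 min.

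**Figure D4:**
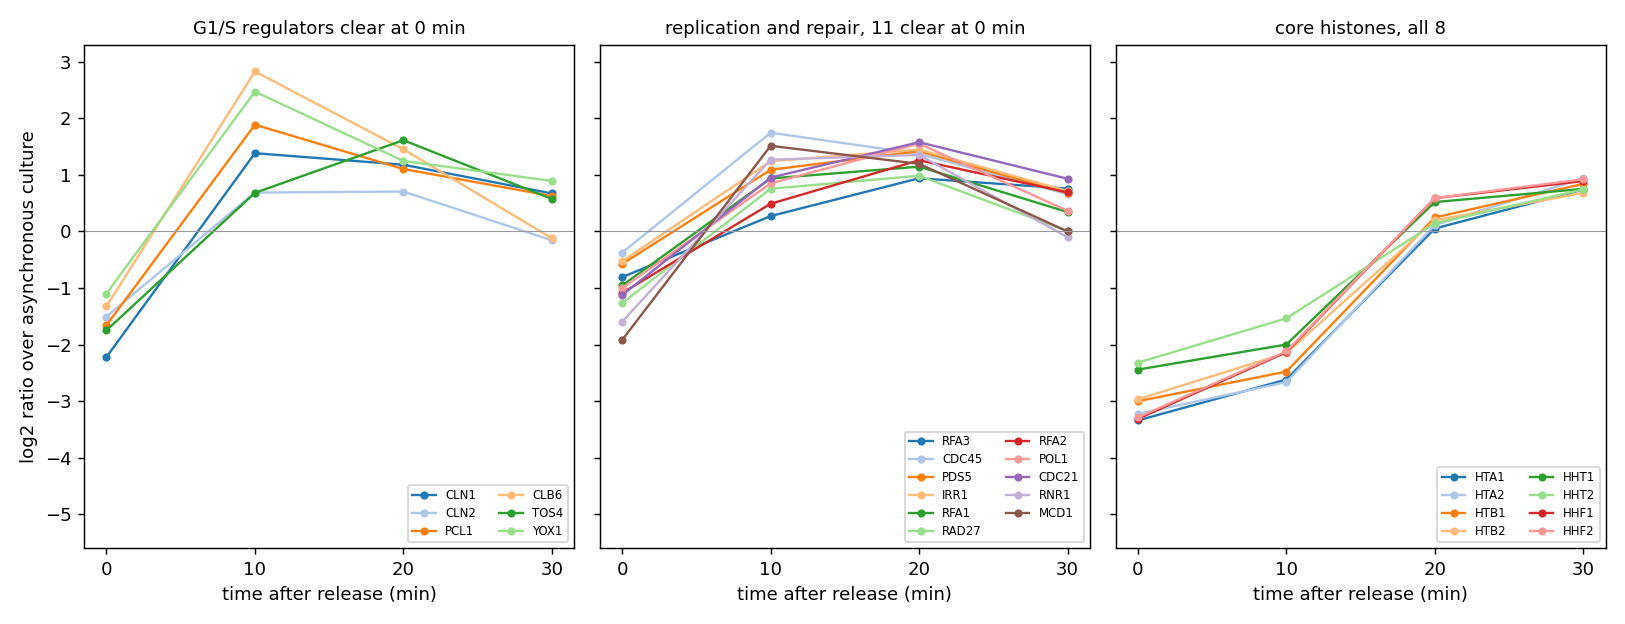
Each line is 1 gene, with its log2 ratio over the asynchronous culture (vertical axis) at 0, 10, 20 and 30 min after release (horizontal axis), for the 6 G1/S regulators and 11 replication and repair genes clear below at 0 min and for all 8 core histone genes. The regulators and replication genes reached their highest values at 10 or 20 min, and the histone genes, with a median of -2.14 log2 at 10 min, at 30 min.

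The lists of the G2/M CLB2 cluster and of the MCM helicase had small median differences. CLB2, the main mitotic cyclin, had -2.17 at 0 min, against -2.13, -2.40 and -0.79, and SWI5, a transcription factor of M/G1, had -1.76, against -1.91, -2.08 and -0.54. Both were low on 3 of the 4 arrays and less so at 30 min, and their differences (-0.40 ± 0.68 and -0.25 ± 0.66 log2, adjusted p = 0.823 and 0.889) turned positive without the 30 min array, at 0.09 and 0.24 log2. The 24 genes of the G2/M CLB2 cluster had a median difference of 0.00 log2, which was -0.077 without the 10 min array, -0.084 without the 20 min array and 0.26 without the 30 min array. Only SPO12, a regulator of mitotic exit, was clear above, with 0.68 at 0 min, against -0.32, -1.13 and -0.84 (difference 1.45 ± 0.34, adjusted p = 0.187). The 7 genes of the MCM helicase and of its loading had a median difference of 0.20 log2 and 0 clear genes. That median was 0.71 without the 10 min array, 0.098 without the 20 min array and -0.13 without the 30 min array. The median log2 ratio of these genes was -0.18 at 0 min, against 0.71 at 10 min, -0.62 at 20 min and -1.08 at 30 min. For 6 of them the 0 min value lay between the released values, so the small difference does not mean an unchanged level.

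Several metabolic lists had medians below 0. Of 19 glycolysis genes, 15 lay below all 3 released arrays, against 29.1% of all genes, and 0 above, against 34.6%. Their median difference was -0.16 log2, and 2 were clear below, against 1.31% of all genes. HXK1, a hexokinase isoform repressed by glucose, had -0.42 at 0 min, against 1.39, 1.52 and 0.90 (difference -1.69 ± 0.28, adjusted p = 0.148), and GLK1, glucokinase, had 0.05, against 1.90, 2.02 and 1.10. Of 12 hexose transport genes, 8 lay below all 3 arrays and 1 above (median difference -0.54 log2). HXT2, a high-affinity transporter, was the clear one, with -0.09 at 0 min, against 1.46, 1.54 and 1.06 (difference -1.44 ± 0.24, adjusted p = 0.148). Several genes of glucose uptake and phosphorylation were thus near the culture level at 0 min and above it on the released arrays.

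Over all genes, 29.1% lay below all 3 released arrays and 34.6% above. Of 32 genes of oxidative phosphorylation, 20 of the 29 with all values lay below all 3 and 0 above. Their median difference was -0.30 log2, with 0 clear genes. Stress response genes had 14 of 24 below all 3 arrays, 0 above and a median of -0.29 log2. Amino acid biosynthesis genes had 20 of 32 below and 1 above (median -0.21 log2). The clear one, ARG1, argininosuccinate synthetase, had 0.82 at 0 min, against 2.36, 2.17 and 1.96 (difference -1.34 ± 0.20, adjusted p = 0.144). NCE103, carbonic anhydrase, which is in no list, had -0.16 at 0 min, against 3.01, 2.24 and 1.81 (difference -2.51 ± 0.48, adjusted p = 0.156). Among the clear genes in no list, 4 mitochondrial or peroxisomal enzymes were chosen after their values were seen. ALD4, an aldehyde dehydrogenase, had -0.39 at 0 min, against 1.69, 1.44 and 1.37 (difference -1.89 ± 0.19, adjusted p = 0.0769). The citrate synthase gene CIT1 had 0.67, against 2.74, 2.19 and 1.85, the peroxisomal isoform gene CIT2 had -0.62, against 1.57, 1.58 and 0.77, and the malate dehydrogenase gene MDH1 had -0.25, against 0.81, 1.26 and 1.04.

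The remaining lists had medians between -0.21 and 0.06 log2, and the lowest of them were like those of amino acid biosynthesis and glycolysis. The median difference was -0.21 log2 for sulfate and methionine genes, -0.16 for phosphate genes, -0.14 for chaperones of the endoplasmic reticulum, 0.03 for the proteasome and 0.06 for ergosterol and lipid genes, each with 0 clear genes. Without the 10 min array the median was -0.067 for sulfate and methionine genes, -0.040 for phosphate genes and 0.019 for the proteasome, and without the 20 min array it was 0.022 for the proteasome. The cell wall stress list had a median of -0.03, which was 0.089 without the 10 min array and -0.058 without the 30 min array, and 1 clear gene. This was CWP1, a mannoprotein of the wall, with -1.38 at 0 min, against -0.03, 0.24 and 0.63 (difference -1.66 ± 0.29, adjusted p = 0.152).

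**Figure D5:**
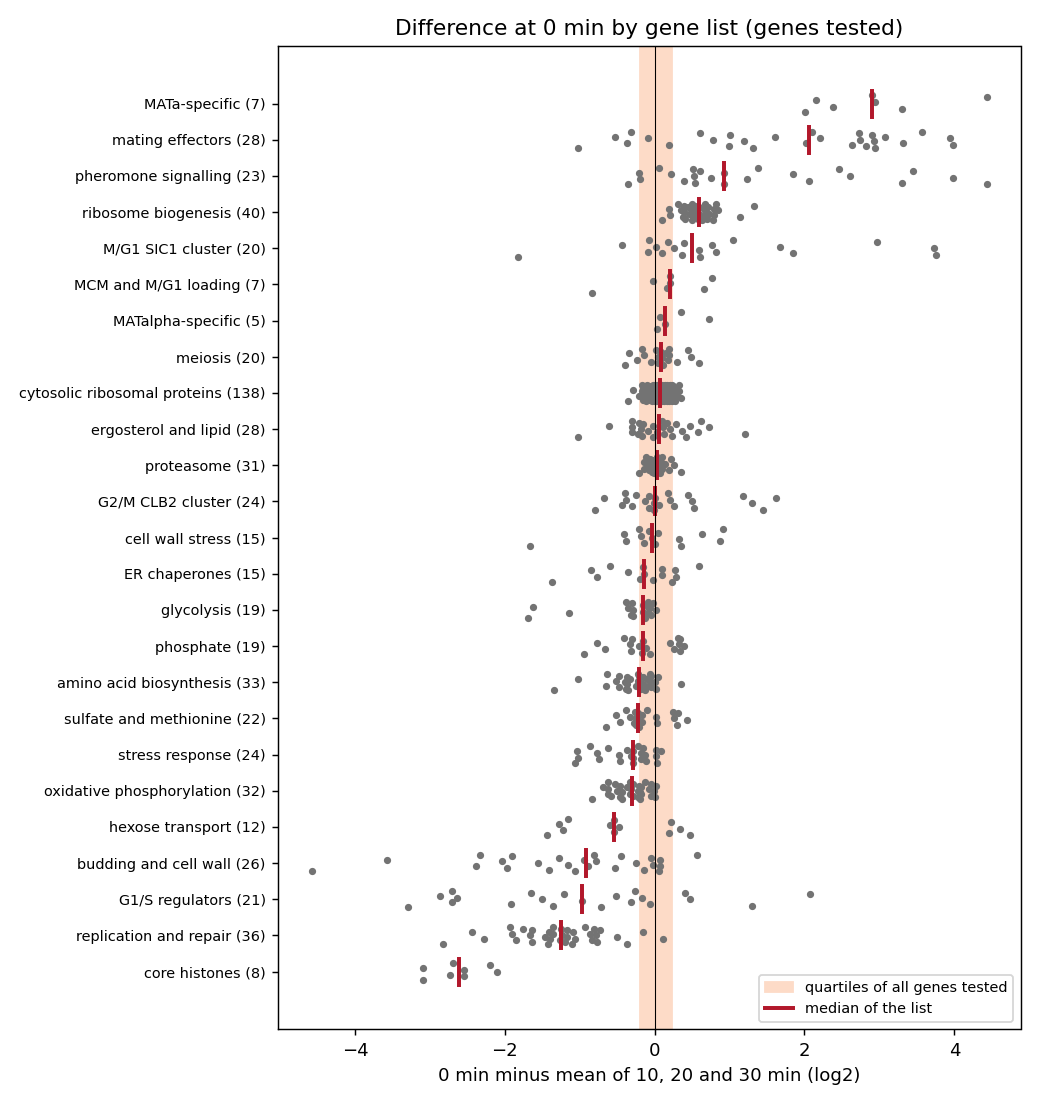
Each point is a gene, placed by its difference between 0 min and the mean of 10, 20 and 30 min (horizontal axis, log2), for 25 gene lists with the number of genes tested in brackets. Red bars are list medians, between -2.62 log2 (core histones) and 2.91 log2 (MATa-specific), and the shaded band lies between the quartiles of all genes tested.

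Some large differences came from genes outside the lists. HMI1, a mitochondrial DNA helicase gene, had 2.57 at 0 min, against 0.44, 0.50 and 0.49 (difference 2.09 ± 0.14, adjusted p = 0.0471), and between -0.17 and 0.24 from 40 to 120 min. MCO32, a mitochondrial protein gene, had 3.20 at 0 min, against 0.29, -0.37 and -0.13 (difference 3.27 ± 0.29, adjusted p = 0.0684). YMR326C, which the gene table does not name, had -4.04 at 0 min, against 0.47, -0.41 and -0.01 (difference -4.06 ± 0.36, adjusted p = 0.0684), and between -0.58 and 0.34 on the later arrays. DIC1, the mitochondrial dicarboxylate carrier, had -3.58 at 0 min, against -0.96, 0.50 and 0.51, and COG5, a Golgi complex subunit chosen after its values were seen, had -1.79, against 0.02, -0.02 and -0.13. For these 5 genes, as for every gene, the difference rests on a single measurement at 0 min, and whether it would recur in a repeat was not tested. YDR491C, also without a name, was clear above although its 30 min value drove the mean, with -0.91 at 0 min, against -2.46, -2.07 and -5.46. YBR089W, which the table does not hold either, had -1.58 at 0 min, against 0.82, 1.47 and 0.21.

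Of the 70 genes clear above, 33 were in a list, and of the 78 clear below, 32 were. Of the clear genes, 6 pairs lie next to each other on a chromosome by the gene table. In 5 of them both members stood on the same side, including STE2 with GYP8, a GTPase activator gene, which had 0.88 at 0 min, against -0.72, -1.05 and -0.93. In the other, SCW11 was clear above while CWH41, a glucosidase of the endoplasmic reticulum, was clear below, with -0.47 at 0 min, against 0.69, 0.74 and 0.74. Another same-side pair is PRM7 with BSC1, whose rows, as given above, had much the same values. How many pairs would lie side by side among as many genes picked at random was not worked out. Whether neighbouring spots or shared promoters had a part in this was not tested.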

How the data were processed

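The authors deposited 1 value per feature and array in log10, a base read from the values, which end at 2 and -2. The scanner, the background correction and the normalization are not given in the sources used. Values were turned into log2 (times 3.32193), and those of size 1.99 or more in log10 were left out as bounds. The 12 control rows stayed out of the tests. Of 6205 open reading frames, 5704 were named through the RefSeq gene table. Genes with a 0 min value and at least 2 of the 3 released values were fitted in limma 3.58.1 (R 4.3.3), after a test on simulated data. The model had an indicator for 0 min. It left 2 residual degrees of freedom, or fewer where a released value was missing. Genes were called at an adjusted p of 0.05. Lists and plots used Python 3.11.15, NumPy 2.4.6, pandas 2.3.3 and matplotlib 3.10.9.

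The arrays and lists were chosen with earlier results of these data known. The rule for named genes took, on each side, the 15 largest differences passing limma, up to 4 called genes per list, the 5 largest called genes in no list and 20 regulators and markers whatever their result. Other genes named in the text were chosen from the lists, or as marked, after their values were seen. Alternatives were other scalings, filters, gaps and error terms, and leaving out each released array.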

Additional observations from a re-analysis of the deposited data

Results flagged for a closer look

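The deposited table also holds 12 control rows that entered no comparison. The row named blank in angle brackets had a log10 ratio of 1.991 at 0 min, against 2.00 at 10 min, 1.98 at 20 min and 2 at 30 min, and the row named empty had 1.86 at 0 min, against 2, 1.97 and 2.00. Both stood out because their ratios were at or near the end of the deposited scale on all 4 arrays, while a further row named blank had 0.0146 at 0 min. The part of such spots in the 205 open reading frame values at the limit was not tested.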

How the results depend on the processing

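No paired analysis was possible because each time point has 1 array. Of 59 named genes under 10 alternatives (590 values), 507 kept direction and side of the threshold, 66 also passed it, 15 no longer passed and 2 changed sign. Only 6 genes passed in the main fit, so most of the 507 values are of genes that passed in neither fit. The alternative that also asked for a difference of at least 1 log2 reused the main fit, so its differences and p-values could not move. Limma called 13 genes higher and 3 lower with quantile-normalized arrays, 10 higher with values on all 4 arrays required, 5 lower with values at the limit kept, and 61 higher and 53 lower with a linear trend over 10 to 30 min taken out. Leaving out 1 released array gave 0 to 73 genes higher and 0 to 87 lower. Without the 10 min array the 6 called genes had adjusted p between 0.00523 and 0.0128, without 20 min between 0.252 and 0.301, and without 30 min between 0.0639 and 0.0806. A gap of 0.5 log2 gave 360 genes clear above and 279 below, and one of 1.5 log2 gave 37 and 25. Leaving out 1 released array gave 86 to 98 clear above and 83 to 155 clear below. By the rule's form this step can only add genes, so the rise itself was fixed in advance. Sign changes came for CLB2 (-0.71 to 0.092 log2 over the fits that leave out an array), SWI5 (-0.53 to 0.24) and the medians of the CLB2 cluster (-0.084 to 0.26, and 0.000539 with all 4 values required or the trend taken out), the MCM genes (-0.13 to 0.71) and cell wall stress (-0.058 to 0.089, and 0.20 with quantile-normalized arrays). Fits without 1 released array have fewer residual degrees of freedom, whichever array is left out. The cause of the changes was not tested. A single array per time point and ratios that end at the scale limit set the precision.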
